A study of Mus musculus with 8 samples.

Results

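Cchcr1 and 9 genes that lie beside it on mouse chromosome 17 were followed in skin RNA of Cchcr1-edited mice: Pou5f1, Tcf19, Psors1c2, Cdsn, Vars2, Gtf2h4, Ddr1, Ier3 and Flot1. They were chosen by their position. Probes of the array were assigned to them through RefSeq accessions, which gave 11 probes for the 10 genes, among 55603 probes and 20128 named genes on the array. Vars2 had 2 probes and each other gene had 1. Pou5f1 was not well above background on any of the 8 arrays, so 9 of the 10 genes, on 10 probes, entered the tests, out of 30417 probes and 14774 genes tested in all.

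The study edited Cchcr1 with CRISPR/Cas9 in an allele-specific way and examined mice with patchy hair loss resembling alopecia areata. All samples were skin of the strain C57BL/6N, hybridised to Agilent single-colour arrays. Genotype Cchcr1 mutant was represented by hair loss skin (n = 2) and by skin labelled normal (n = 4), and genotype Wild type by skin labelled normal (n = 2). Titles add a number: Mutant097 covers hair loss replicate 1 and mutant normal replicates 1 and 2, Mutant113 covers hair loss replicate 2 and mutant normal replicates 3 and 4, and Wild001 covers both wild type replicates. A letter follows: S for hair loss samples, B for mutant normal replicates 1 and 3 and wild type replicate 1, and A for the remaining normal samples; its meaning is not given. The labels used here do not give the altered bases, the age or sex of the mice, the way each line was founded, or whether a number is an animal, so p-values measure the spread between these samples, which may be technical. Wherever wild type is compared, its genotype cannot be told apart from its title number, and the place of the edit relative to the Cchcr1 probe is not given, so that probe does not check the genotype.

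The human counterpart of this segment, PSORS1 in the major histocompatibility complex, is the strongest known susceptibility region for psoriasis, and its genes are inherited together so tightly that association alone rarely separates them. CCHCR1 encodes a coiled-coil protein found at centrosomes and in cytoplasmic processing bodies, where mRNA is decapped. CDSN encodes corneodesmosin, an adhesion protein that holds the outermost epidermal cells and the inner root sheath of the hair together. PSORS1C2, between them, encodes a small proline-rich protein.

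From the gene table of RefSeq, the order along the chromosome is Pou5f1, Tcf19, Cchcr1, Psors1c2, Cdsn, then Mucl3 and Sfta2, then Vars2, Gtf2h4, Ddr1, Ier3 and Flot1. Upstream sequences were found for 9 of the 10 genes in a RefSeq table of build GRCm38.p6 (15 start sites in all). The 3 sequences below belong to the genes on which the results turn: the segment shared by Cchcr1 and Tcf19, and the 250 bases before the first listed starts of Psors1c2 and of Cdsn. Each is the plus strand, and capitals mark motifs that a script found when both strands were searched. In the shared segment CCGCCC is a GC box of the opposite strand, where it reads GGGCGG. The other capitals there are CCAAT boxes of the opposite strand, which therefore appear as ATTGG when printed. In the Psors1c2 sequence the capitals are a TATA box, searched for by the letters TATAAA. In that of Cdsn they are a core of the kind bound by Lef and Tcf factors, which appears as TCAAAG on this strand. No 2 of these motifs overlap in the sequences shown.
Cchcr1-Tcf19, chr17:35516825-35517048: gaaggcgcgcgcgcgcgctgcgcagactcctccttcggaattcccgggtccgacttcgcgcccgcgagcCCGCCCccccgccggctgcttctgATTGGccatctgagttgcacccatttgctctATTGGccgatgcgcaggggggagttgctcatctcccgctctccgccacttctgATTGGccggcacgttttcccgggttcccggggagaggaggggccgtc
Psors1c2, chr17:35532951-35533200: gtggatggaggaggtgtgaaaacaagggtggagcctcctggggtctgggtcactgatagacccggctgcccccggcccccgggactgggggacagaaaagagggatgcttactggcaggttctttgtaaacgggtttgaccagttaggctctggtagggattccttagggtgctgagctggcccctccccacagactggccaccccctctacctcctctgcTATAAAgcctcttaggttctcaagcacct
Cdsn, chr17:35542851-35543100: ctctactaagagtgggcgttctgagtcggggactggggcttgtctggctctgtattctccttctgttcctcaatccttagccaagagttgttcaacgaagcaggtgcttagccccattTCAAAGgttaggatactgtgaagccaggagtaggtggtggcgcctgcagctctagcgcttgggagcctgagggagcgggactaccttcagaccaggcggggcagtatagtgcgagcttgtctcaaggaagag

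Cchcr1 and Tcf19 are read in opposite directions, and the 224 bases printed are everything between their starts. Among 13572 genes on plus strands, 951 (7.01%) have the start of a minus-strand gene at this distance or nearer. The shared segment is 68.3% G or C, with 26 CpG dinucleotides at 1.0 times the number its base composition gives, 3 CCAAT boxes, 1 GC box and no TATAAA. The Psors1c2 sequence differs in kind. It holds 4 CpG, 0.186 times the number its composition gives, and 1 TATAAA, which begins 29 bases before the start. The Cdsn sequence, at 0.433 times, has no TATA, CCAAT or GC box of these letters and 1 Lef/Tcf core. Before the second listed Cdsn start the ratio was 0.119 and none of these motifs occurred. Over 32851 promoters of the table, the median CpG ratio was 0.374, and in windows of 250 bases before the start TATAAA occurred in 12.4%, CCAAT in 33.8%, GGGCGG in 32.7% and the Lef/Tcf core, CTTTGA, in 13.8%. A match is a run of letters and not a site shown to be used.

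Levels are log2 intensities from which the 75th percentile of the array was subtracted, so a level of 0 is that percentile. Only differences of one probe between samples are compared, since probes differ in how well they bind. A probe was called when its limma p-value, adjusted by the Benjamini-Hochberg method over all 30417 probes, was under 0.05. The 75th percentile of intensity ran from 83.1 to 211 between arrays and 25421 to 30205 probes were well above background. All arrays shared 1 slide and 1 scan. Skin as the labelled tissue was checked against keratinocyte markers: all 6 interfollicular epidermis genes on the array (Krt5, Krt14, Krt1, Krt10, Lor and Ivl) were well above background in every sample. Their summed log2 level ran from 10.31 to 10.81, but single genes ranged more widely, Krt14 from 5.76 to 8.06 and Ivl from 0.64 to 2.51. In hair loss minus wild type 5 of the 6 were higher and 1 lower (median 0.57), with 0 called, against 45.8% of all probes higher.

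**Figure D1:**
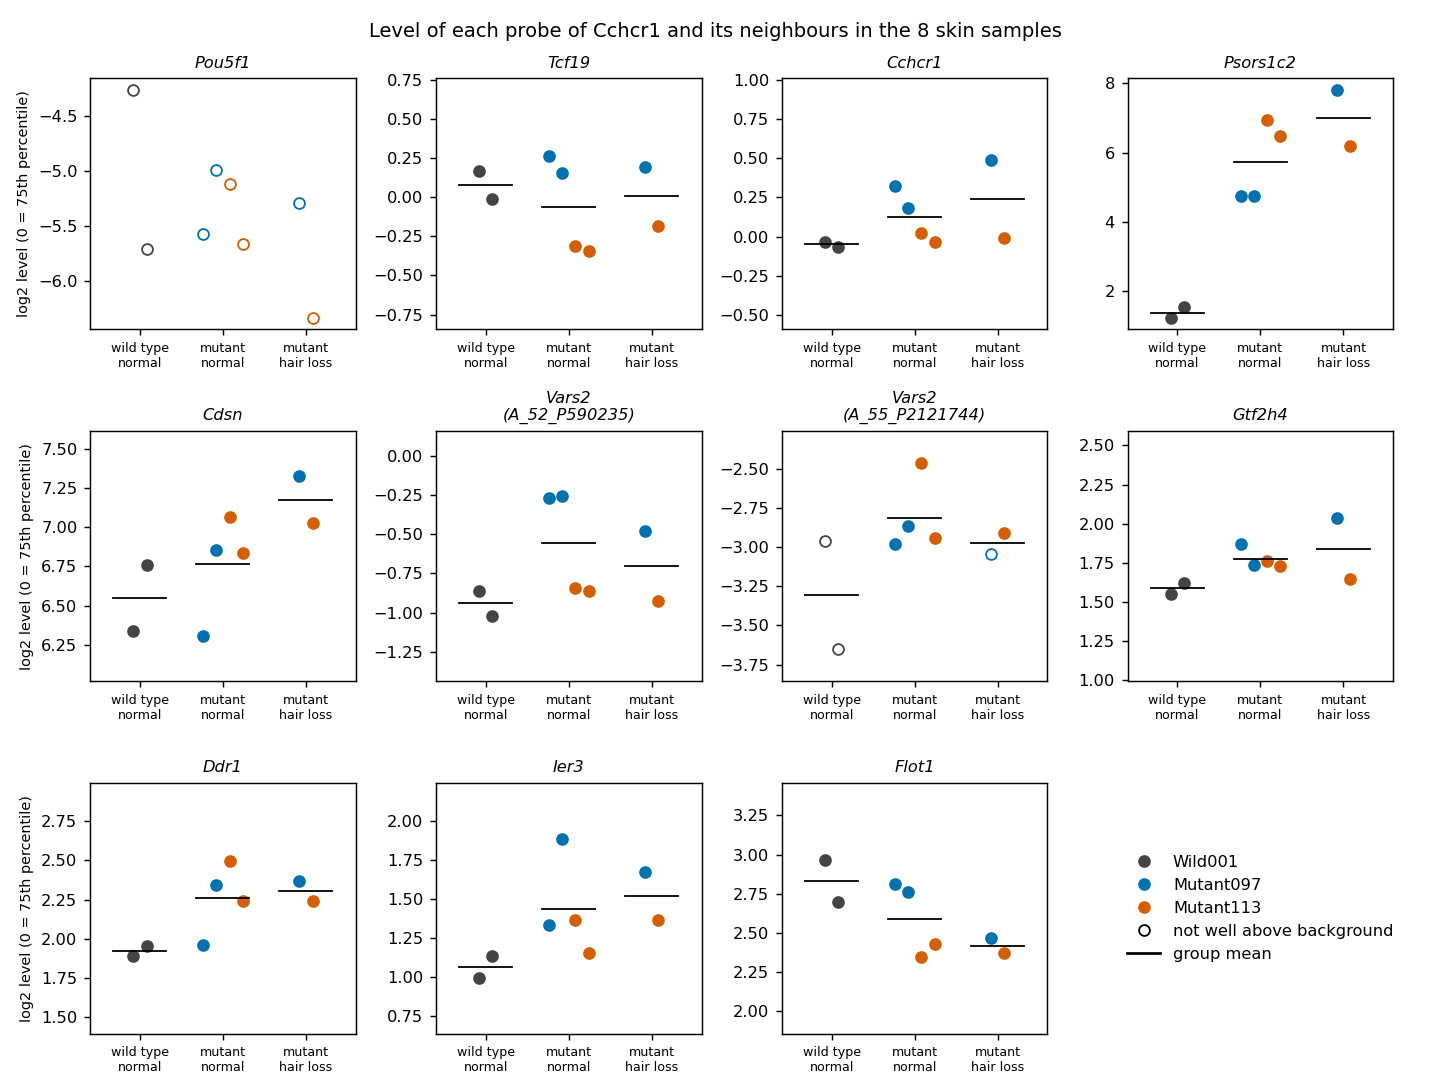
Log2 level of every probe of Cchcr1 and its neighbours (vertical axes, 0 = 75th percentile of the array; each panel has its own range) in wild type normal, mutant normal and mutant hair loss skin. Points are samples, coloured by title number, open where the probe was not well above background, and lines are group means. Psors1c2 is the panel in which wild type samples (1.24 and 1.54) lie far below every mutant sample (4.74 to 7.82), while Tcf19, Cchcr1, Flot1 and the brighter Vars2 probe separate Mutant097 from Mutant113.

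Psors1c2 was the gene of the segment that differed most. Its levels were 1.24 and 1.54 in wild type skin, and 4.76, 4.74, 6.95 and 6.48 in mutant normal skin replicates 1 to 4. In hair loss skin they were 7.82 and 6.19. Every mutant sample was above both wild type samples, and the hair loss samples lay within or above the range of mutant normal skin. Hair loss skin had the highest group mean, 7.0 ± 1.15 (SD, n = 2), followed by mutant normal skin with 5.73 ± 1.15 (SD, n = 4) and wild type with 1.39 ± 0.21 (SD, n = 2). The probe was well above background on all 8 arrays. Over the samples its SD was 2.44, larger than that of 99.7% of 12548 genes, against a median of 0.26.

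In hair loss skin Psors1c2 was 49.0-fold higher than in wild type (log2 difference 5.61, SE 0.85, 95% interval 3.65 to 7.58, limma adjusted p = 0.0295). In mutant normal skin it was 20.3-fold higher (log2 difference 4.34, SE 0.73, 95% interval 2.64 to 6.04), and the limma adjusted p of 0.0528 missed the threshold. Hair loss skin minus normal skin of the mutants gave 1.27 on the log2 scale (SE 0.73, 95% interval -0.43 to 2.98, limma adjusted p = 0.993). The call in hair loss against wild type was lost without hair loss replicate 1 (log2 difference 4.80, limma adjusted p = 0.16), without wild type replicate 1 (5.47, limma adjusted p = 0.166) and without wild type replicate 2 (5.76, limma adjusted p = 0.0734), and also when samples of one title number and group were averaged (5.61, limma adjusted p = 0.232). For mutant normal skin against wild type, leaving out 1 sample at a time gave log2 differences from 3.93 to 4.67, with limma adjusted p from 0.0553 to 0.329, while normexp background correction (0.0373), an intensity trend (0.0250) and slide row as a block (0.00427) brought it under the threshold. Both hair loss samples lay in row 1 of the slide and both wild type samples in row 2, so row and group coincide in hair loss minus wild type. With row as a block that difference in Psors1c2 was 7.58 (limma adjusted p = 0.00381), which rests on mutant normal samples in both rows. Those in row 1 were titled Mutant097 and those in row 2 Mutant113. Row and title number therefore cannot be told apart in either of these row-block results.

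Of the 9 genes, Psors1c2 was therefore the only one called against wild type in hair loss skin, where 432 probes (1.42% of those tested) were called. In mutant normal skin 0 of 9 were called by limma, against 211 probes (0.694%). At an unadjusted p under 0.05, 5242 of the 30417 probes passed there and 7546 in hair loss skin. With 9 genes, a single call is not read as a property of the segment.

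The mutant samples of Psors1c2 were also compared by title number. Normal skin read 4.76 and 4.74 where titled Mutant097 but 6.95 and 6.48 where titled Mutant113, a log2 difference of -1.96 (SE 0.23, 95% interval -2.54 to -1.39, limma adjusted p = 0.0622). The hair loss sample of Mutant097, at 7.82, was the highest of all samples, and that of Mutant113, at 6.19, lay below both of its normal skin samples. Within Mutant097, hair loss exceeded normal skin by 3.07 on the log2 scale (SE 0.28, limma adjusted p = 0.0279), where 191 probes (0.628%) were called. Within Mutant113 the log2 difference was -0.52 (SE 0.28, limma adjusted p = 1.0), where 1 probe (0.00329%) was called. Each of these rests on 1 hair loss sample, assumed to vary like the other samples. In Mutant113 that sample lay in slide row 1 and the normal skin samples in row 2, while every Mutant097 sample lay in row 1. For any gene, row and lesion therefore cannot be told apart within Mutant113 or in the difference between lesion effects. The difference between these lesion effects was 3.59 (SE 0.40, 95% interval 2.6 to 4.58) and, at a limma adjusted p of 0.0720, it was not called. No probe of the 30417 was called for that difference (0%), with 2889 at an unadjusted p under 0.05 and 287 called with normexp background correction.

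The title numbers were also fitted apart against wild type, which lay in slide row 2. All Mutant097 samples and the hair loss sample of Mutant113 lay in row 1, so row and genotype cannot be told apart for these. Xist was well above background in 3 of 3 Mutant113 samples and in 0 of wild type. Ddx3y and Eif2s3y were so in 0 of 3 and in 2 wild type samples. The part of sex was not tested. Against wild type, both title numbers were higher in Psors1c2. Normal skin of Mutant097 was 10.3-fold higher (log2 difference 3.36, limma adjusted p = 0.00643) and normal skin of Mutant113 40.0-fold higher (log2 difference 5.32, limma adjusted p = 0.000576). For hair loss skin the folds were 86.0 in Mutant097 (limma adjusted p = 0.000793) and 27.9 in Mutant113 (limma adjusted p = 0.00282), each from 1 hair loss sample assumed to vary like the others. Called probes in these 4 comparisons made up 0.999%, 3.26%, 6.03% and 1.94% of those tested.

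Hair shaft and inner root sheath transcripts moved with Psors1c2. All 9 genes of that list on the array (Krt31, Krt34, Krt35, Krt81, Krt86, Krt25, Krt27, Krt71 and Tchh) were well above background in every mutant sample, and 7 and 5 of them in the wild type samples, with Krt34 in neither. Their summed log2 level was 2.55 and 1.19 in wild type, 10.01, 8.96, 11.10 and 10.44 in mutant normal skin, then 11.70 and 10.52 in hair loss skin. Against wild type all 9 were higher in mutant normal skin (median log2 difference 9.09) and in hair loss skin (median 10.12), while over all probes the medians were -0.04 and -0.06. In each comparison 8 of the 9 were called, against 0.694% and 1.42% of all probes. Krt71, a keratin of the inner root sheath, rose by 9.09 in mutant normal skin (SE 0.79, limma adjusted p = 0.00761), and Tchh, the inner root sheath protein trichohyalin, by 7.69 (SE 0.65, limma adjusted p = 0.00724). In normal skin all 9 were lower in Mutant097 than in Mutant113, 2 of them called, with a median of -1.57. At each number the B sample had a higher hair sum than the A sample. Single genes did not all follow the sum in Mutant097. There Krt35, Krt25, Krt27, Krt71 and Tchh were higher in B. Krt31, Krt34, Krt81 and Krt86 were lower in B (3.79, 3.65, 2.18 and 4.57) than in A (3.93, 4.33, 2.52 and 5.43). For Psors1c2 the B and A samples nearly coincided in Mutant097 (4.76 and 4.74), while B was higher in Mutant113 (6.95 and 6.48) and lower in wild type (1.24 and 1.54). Other marker lists differed from wild type as well, with 0 called in each. The 5 proliferation markers were all higher in mutant normal (median 2.00) and in hair loss skin (median 2.26), as were the 4 of adipocytes (0.58 and 0.70). The 4 melanocyte markers had medians of 2.75 in mutant normal and 3.50 in hair loss skin, 3 of them higher and 1 lower. In both comparisons 4 of 4 were without overlap, against 28.3% and 53.3% of all probes. The 3 myeloid markers were all lower (medians -1.02 and -1.03), as were the 3 of dermal fibroblasts (-0.96 and -0.97) and the 4 of skeletal muscle (-0.66 and -2.13). The part of hair follicle and other tissue content in the Psors1c2 differences was not tested. In these pieces of skin, more cells of a type and more RNA per cell cannot be told apart.

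**Figure D2:**
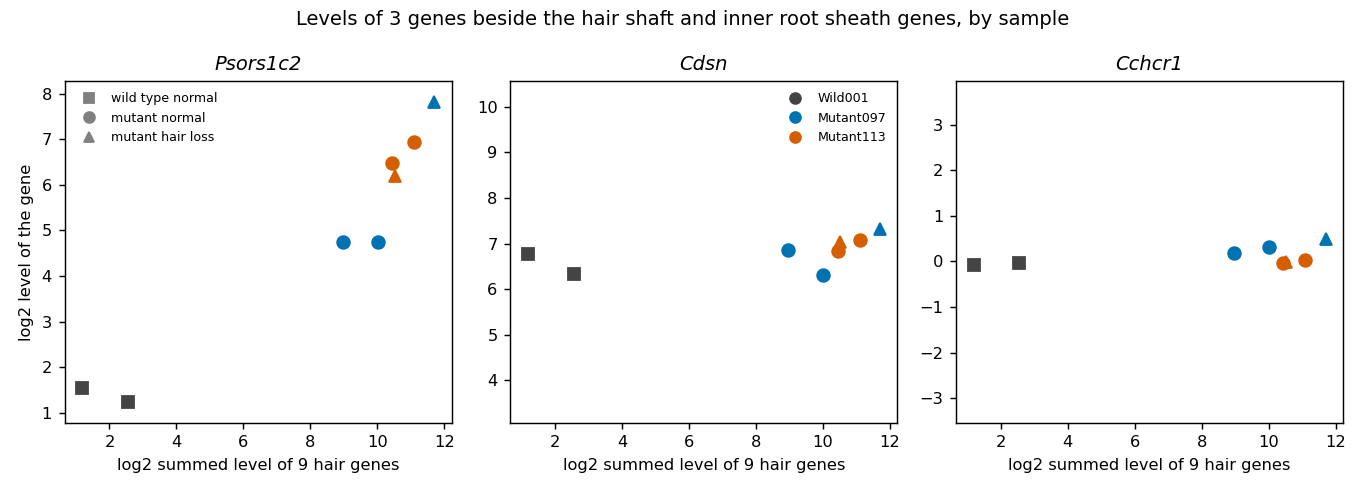
Log2 level of Psors1c2, Cdsn and Cchcr1 (vertical axes, each spanning the same number of log2 units) against the log2 summed level of 9 hair shaft and inner root sheath genes (horizontal axes), 1 point per sample, coloured by title number and shaped by group. Psors1c2 is lowest in the wild type samples, whose hair sums are 1.19 and 2.55, and highest in the hair loss sample with the highest sum, 11.70, while Cdsn and Cchcr1 stay within narrow ranges.

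By pattern over the 8 samples, after each gene is centred on its own mean, the 5 genes nearest to Psors1c2 among 12547 were Gm3285, Krtap10-4, Icmt, Krtap4-8 and Krtap3-2, at root mean square differences of 0.37 to 0.47. This comparison was added after the values of Psors1c2 had been seen. Krtap genes encode keratin-associated proteins, which cross-link keratins in the hair shaft. The 8 samples fall into separate clusters, wild type and mutant, so no correlation is given.

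Cdsn, the neighbour of Psors1c2 on the far side from Cchcr1, behaved differently. Its levels were 6.34 and 6.76 in wild type, 6.30, 6.86, 7.07 and 6.83 in mutant normal skin, then 7.33 and 7.02 in hair loss skin. Mutant normal skin overlapped both other groups, and the hair loss samples were above both wild type samples. The means were 6.55 ± 0.30 (SD, n = 2), 6.77 ± 0.32 (SD, n = 4) and 7.18 ± 0.21 (SD, n = 2), in that order. Hair loss minus wild type was 0.63 (SE 0.29, 95% interval -0.05 to 1.30, limma adjusted p = 0.231) and mutant normal minus wild type 0.22 (SE 0.25, limma adjusted p = 0.692). Neither this nor hair loss minus mutant normal skin, at 0.41 (SE 0.25, limma adjusted p = 0.999), was called. The upper ends of the Cdsn intervals against wild type were 0.80 in mutant normal and 1.30 in hair loss skin, below the Psors1c2 differences of 4.34 and 5.61.

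Other components of the corneodesmosome, the junction that Cdsn belongs to, and the proteases that cut it were followed on a list of 11 genes, 9 of which could be tested. In hair loss against wild type all 9 had positive differences (0.03 to 1.72, median 0.44), against 45.8% of all probes. By title number, 6 were higher and 3 lower than wild type in the 1 hair loss sample of Mutant097 (median 0.12). In the 1 of Mutant113 all 9 were higher (median 0.58). In the comparison of groups 1 gene rose past the threshold, where 1.42% of all probes were called. That gene was Klk7, a serine protease that cleaves corneodesmosin. Its levels were 1.08 and 1.66 in wild type, 2.18, 2.05, 2.59 and 1.93 in mutant normal skin, then 3.15 and 3.03 in hair loss skin, so the 3 groups did not overlap. Klk7 rose by 1.72 in hair loss skin (SE 0.29, limma adjusted p = 0.0382) and was 0.82 higher in mutant normal skin than in wild type (SE 0.25, limma adjusted p = 0.176). Without wild type replicate 2 no probe of the array was called in hair loss minus wild type. The same held with 1 mean per title number and group, so the Klk7 call was lost in both settings. Differences of the brightest members in hair loss skin were 0.70 for Pkp1, a desmosomal plaque protein, 0.44 for the protease Klk5 and 0.03 for the protease inhibitor Spink5. In mutant normal skin 7 of the 9 were higher and 2 lower than in wild type (median 0.27), with 0 called, against 46.4% of all probes higher.

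The 5 genes nearest to Cdsn in pattern were Metrnl, Dapk2, Atpaf2, Prrg2 and Cd72, at 0.11 on the log2 scale each. Within the segment Ddr1 was nearest, at 0.19, rank 156 of 12547 genes. Cdsn itself varied by an SD of 0.35 over the samples, more than 68.3% of genes.

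**Figure D3:**
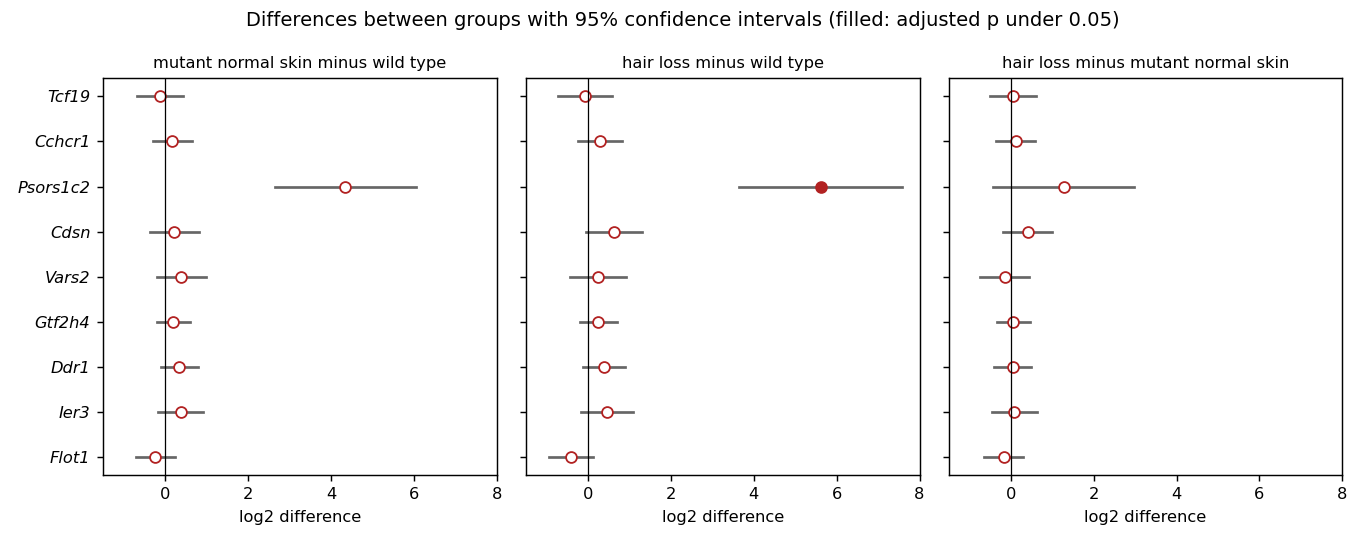
Log2 differences (horizontal axes) of the 9 tested genes, in chromosome order, for mutant normal minus wild type, hair loss minus wild type and hair loss minus mutant normal skin. Points are limma estimates with 95% confidence intervals, filled where the adjusted p is under 0.05. Only Psors1c2, at 4.34 and 5.61 against wild type, stands clear of 0 in the first and second panels, and no point is filled in the last.

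Cchcr1, the edited gene, was close to the 75th percentile of every array. It read -0.03 and -0.07 in wild type, 0.32, 0.18, 0.03 and -0.04 in mutant normal skin, then 0.49 and -0.01 in hair loss skin. The 3 Mutant097 samples were the 3 highest, and the 3 Mutant113 samples, from -0.04 to 0.03, lay beside the wild type samples. In decreasing order the group means were hair loss (0.24 ± 0.35, SD, n = 2), mutant normal (0.12 ± 0.16, SD, n = 4) and wild type (-0.05 ± 0.03, SD, n = 2), and no neighbours in that order differed beyond their spread. Cchcr1 in hair loss skin exceeded wild type by 0.29 (SE 0.23, 95% interval -0.25 to 0.82, limma adjusted p = 0.461), and in mutant normal skin by 0.17 (SE 0.20, 95% interval -0.29 to 0.64, limma adjusted p = 0.688). The SD of Cchcr1 over all samples, 0.20, was smaller than that of most genes, with 30.4% below it.

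Fitted by title number, Cchcr1 in normal skin was 0.26 higher in Mutant097 than in Mutant113 (SE 0.16, 95% interval -0.15 to 0.66, limma adjusted p = 0.494). Against wild type it was 0.30 higher in normal skin of Mutant097 (limma adjusted p = 0.350) and 0.04 higher in that of Mutant113 (limma adjusted p = 0.909). The hair loss sample of Mutant097 stood 0.54 above wild type (95% interval 0.04 to 1.03, limma adjusted p = 0.145) and that of Mutant113 0.04 (limma adjusted p = 0.931). Hair loss minus normal skin was 0.23 within Mutant097 and -0.004 within Mutant113, and the difference between these was 0.24 (SE 0.28, limma adjusted p = 0.848). None of these was called.

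The genes nearest to Cchcr1 in pattern were Scaf4, at a root mean square difference of 0.025, Rps9 (0.039), Aarsd1 (0.040), Rps15a (0.044) and Naa10 (0.045). In the segment the nearest was Gtf2h4 (0.083, rank 75 of 12547), followed by Vars2 (0.174, rank 1733) and Tcf19 (0.180, rank 1911). Tcf19, which shares its start region with Cchcr1, was thus not among the genes nearest to it by this measure. The measure also depends on how much each gene varies. Seen from Tcf19, Cchcr1 had rank 746 of 12547.

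Processing bodies, where the human CCHCR1 protein has been found, were followed through 10 genes of the decapping machinery, all testable. None was called in any of the 3 comparisons of groups, and their median log2 differences were 0.06 in mutant normal and 0.10 in hair loss skin against wild type. The brightest were the decapping scaffold Edc4 (0.13 in both), Lsm14a (0.17 in both) and the helicase Ddx6 (0.07 and 0.43).

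Tcf19, a nuclear protein whose expression follows the cell cycle, gave 0.17 and -0.01 in wild type, 0.26, 0.15, -0.31 and -0.35 in mutant normal skin, then 0.19 and -0.19 in hair loss skin. All 3 Mutant097 samples were above all 3 Mutant113 samples, and wild type overlapped Mutant097. No comparison of groups was called: Tcf19 was -0.14 in mutant normal minus wild type (SE 0.24, limma adjusted p = 0.799) and 0.06 in hair loss minus mutant normal skin (SE 0.24, limma adjusted p = 0.999). Between title numbers in normal skin the difference was 0.54 (SE 0.17, 95% interval 0.12 to 0.96, limma adjusted p = 0.243).

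Vars2, the mitochondrial valyl-tRNA synthetase, had the same order of mutant title numbers on its brighter probe (A_52_P590235). Its levels were -0.86 and -1.02 in wild type, -0.27, -0.26, -0.84 and -0.86 in mutant normal skin, then -0.48 and -0.93 in hair loss skin. The Mutant097 samples were the 3 highest, and those of Mutant113 overlapped wild type. Normal skin of Mutant097 exceeded that of Mutant113 by 0.59 (SE 0.16, 95% interval 0.18 to 1.0, limma adjusted p = 0.216) and wild type by 0.68 (SE 0.16, limma adjusted p = 0.125). Mutant normal minus wild type was 0.38 (SE 0.26, limma adjusted p = 0.478).

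The second Vars2 probe (A_55_P2121744) was dim and did not repeat that order. It was well above background in all 4 mutant normal samples and 1 of 2 hair loss samples, and in neither wild type sample. Its levels were -2.96 and -3.65 in wild type, -2.98, -2.87, -2.47 and -2.94 in mutant normal skin, then -3.04 and -2.91 in hair loss skin. The mutant and wild type ranges overlapped. The measured differences from wild type were 0.49 in mutant normal (SE 0.25, limma adjusted p = 0.349) and 0.33 in hair loss skin (SE 0.28, limma adjusted p = 0.490), and no fold is given because wild type was not well above background. Between title numbers it was -0.22 (SE 0.30, limma adjusted p = 0.771), opposite in sign to the brighter probe, and all of its signs against wild type turned with normexp background correction.

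Flot1, which encodes the membrane raft scaffold flotillin-1, also sorted by title number. It read 2.97 and 2.70 in wild type, 2.82, 2.76, 2.35 and 2.43 in mutant normal skin, then 2.47 and 2.37 in hair loss skin. All Mutant097 samples were above all Mutant113 samples, and both hair loss samples were below both wild type samples. The difference between hair loss and wild type was -0.41 (SE 0.23, 95% interval -0.95 to 0.13, limma adjusted p = 0.306), and between the title numbers in normal skin 0.40 (SE 0.18, limma adjusted p = 0.358).

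Cchcr1, Tcf19, Vars2 and Flot1 were thus the 4 of 9 genes in which all Mutant097 samples lay above all Mutant113 samples, and none had the reverse order. Over the 30417 probes tested, 25.5% separated the title numbers without overlap, 15.7% with Mutant097 higher. In normal skin 81 probes (0.266%) were called by limma between the numbers, 0 of them among the 9 genes. Slide row coincides with title number in mutant normal skin, since replicates 1 and 2 lay in row 1 and replicates 3 and 4 in row 2, and these cannot be told apart there. Transcripts of the sex chromosomes followed the number too: Xist was well above background in 3 of 3 Mutant113 and 0 of 3 Mutant097 samples, and Ddx3y and Eif2s3y in 0 of 3 and 3 of 3, as well as in 2 wild type samples. Proliferation genes also differed: the summed log2 level of 5 of 5 markers was 5.20 and 4.59 in hair loss skin, 5.48 and 4.77 in Mutant097 normal skin, 4.31 and 3.83 in Mutant113 normal skin, and 2.34 and 2.93 in wild type, where Top2a and Cdk1 were not well above background in replicate 1. In normal skin the 3 dermal fibroblast markers on the array were all higher in Mutant097 than in Mutant113 (median log2 difference 1.56) and the 4 skeletal muscle markers all lower (median -1.01), with 0 called in either list. The part of sex, proliferation and tissue content in the differences between numbers was not tested.

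**Figure D4:**
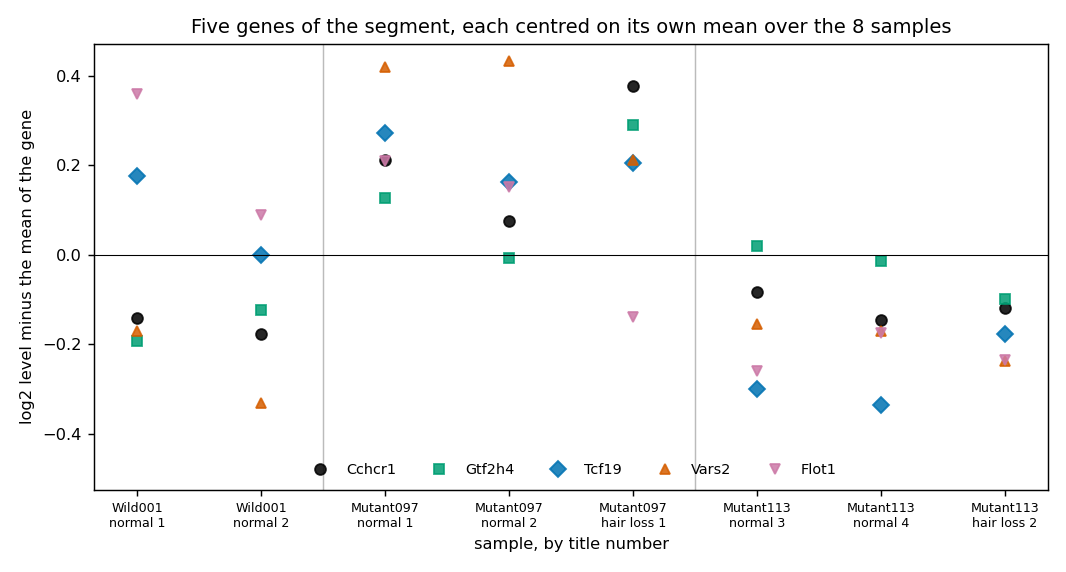
Log2 level minus the mean of the gene over the 8 samples (vertical axis) for Cchcr1, Gtf2h4, Tcf19, Vars2 (brighter probe) and Flot1, with samples along the horizontal axis grouped by title number. Cchcr1, Tcf19 and Vars2 are above 0 in the 3 Mutant097 samples and below 0 in the 3 Mutant113 samples, whereas wild type samples are high for Flot1 and low for Cchcr1, Gtf2h4 and Vars2.

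Gtf2h4 encodes a core subunit of TFIIH, the complex that opens DNA at promoters and damage sites. It read 1.55 and 1.62 in wild type, 1.87, 1.74, 1.76 and 1.73 in mutant normal skin, then 2.03 and 1.65 in hair loss skin. Every mutant sample exceeded both wild type samples, hair loss replicate 2 by the least. The differences from wild type were 0.19 in mutant normal (SE 0.17, 95% interval -0.21 to 0.58, limma adjusted p = 0.602) and 0.25 in hair loss skin (SE 0.20, limma adjusted p = 0.451). Gtf2h4 was among the steadiest genes of the array, with an SD of 0.15 that only 13.4% of genes fell below. The 9 other TFIIH genes gave no call, with median differences of 0.10 and 0.18 against wild type. Gtf2h5, Gtf2h1 and Ercc2, the brightest of them, were at 0.10, -0.03 and -0.34 in mutant normal skin.

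Ddr1 is a receptor tyrosine kinase that binds collagen. Its levels were 1.89 and 1.96 in wild type, 1.96, 2.34, 2.50 and 2.24 in mutant normal skin, then 2.37 and 2.24 in hair loss skin. No mutant sample was below a wild type sample, although mutant normal replicate 1 and wild type replicate 2 nearly coincided. Ddr1 was 0.34 higher than wild type in mutant normal skin (SE 0.19, 95% interval -0.11 to 0.78, limma adjusted p = 0.408) and 0.38 higher in hair loss skin (SE 0.22, limma adjusted p = 0.321). Its relative Ddr2, in contrast, was at -0.58 and -0.77. That difference between relatives was not tested.

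Ier3, an early response gene induced by stress and growth factors, read 0.99 and 1.13 in wild type, 1.33, 1.89, 1.36 and 1.15 in mutant normal skin, then 1.67 and 1.37 in hair loss skin. The mutant samples were again all above the wild type samples. The log2 differences from wild type were 0.37 in mutant normal (SE 0.23, limma adjusted p = 0.455) and 0.45 in hair loss skin (SE 0.27, 95% interval -0.17 to 1.08, limma adjusted p = 0.331). Ier2 and Ier5, also early response genes, were 0.92 and 0.20 higher in mutant normal skin than in wild type, and neither was called.

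Pou5f1 encodes the pluripotency factor Oct4, which is switched off in most adult tissue. It was not well above background in any sample, and no difference is given for it. Of the 6 other pluripotency genes listed, Sox2 and Zfp42 were likewise never above background on the required 2 arrays, and Klf4, Nanog, Myc and Lin28a could be tested, with 0 called. Klf4, which is also a regulator of epidermal barrier formation, was 0.18 higher in mutant normal skin than in wild type.

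Counted together, 7 of the 9 genes were higher and 2 lower than wild type, in mutant normal skin (median 0.22) and in hair loss skin (median 0.29). Over all probes 46.4% and 45.8% were higher, with medians of -0.04 and -0.06. These comparisons share the wild type samples. Mutant normal skin did not overlap wild type for 4 of 9, namely Psors1c2, Gtf2h4, Ddr1 and Ier3, against 28.3% of all probes. Hair loss skin did not overlap wild type for 7 of 9, against 53.3%. Between hair loss and mutant normal skin 0 of 9 were called and 0 of 9 were without overlap, against 0% and 12.4% of all probes, with a median of 0.06. That comparison called no probe by limma, although 1582 had an unadjusted p under 0.05. The mitochondrial tRNA synthetases beside Vars2, 15 of 16 testable, gave 12 higher and 3 lower in mutant normal skin than in wild type (median 0.09) with 0 called, against 46.4% of all probes higher. Tars2, Fars2 and Rars2, the brightest of them, were at 0.23, 0.00 and 0.71.

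Of 14 further genes within or just beyond the segment, 11 could be tested and 0 were called in any of the 3 comparisons of groups or between title numbers in normal skin. In the 1 hair loss sample of Mutant097 against wild type, Sfta2 (2.68, limma adjusted p = 0.0363) and Ppp1r18 (-2.02, limma adjusted p = 0.0339) were called, against 6.03% of all probes, and Ppp1r18 was not well above background in that sample. In mutant normal skin 9 were higher and 2 lower than wild type, from -0.85 for Ppp1r18 to 1.17 for Prr3, with a median of 0.24. Over all probes 46.4% were higher there. Sfta2, which lies between Cdsn and Vars2 and encodes a surfactant-associated protein, was the flanking gene most displaced in hair loss skin and is named here after its values were seen. It read -2.32 and -3.22 in wild type, -2.16, -2.30, -0.98 and -1.57 in mutant normal skin, then -0.09 and -1.43 in hair loss skin. As in Psors1c2, the Mutant113 samples were above the Mutant097 samples in normal skin, and the highest value was the hair loss sample of Mutant097. Sfta2 was 2.01 above wild type in hair loss skin (SE 0.58, limma adjusted p = 0.101) and 1.02 above it in mutant normal skin (SE 0.50, limma adjusted p = 0.347).

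**Figure D5:**
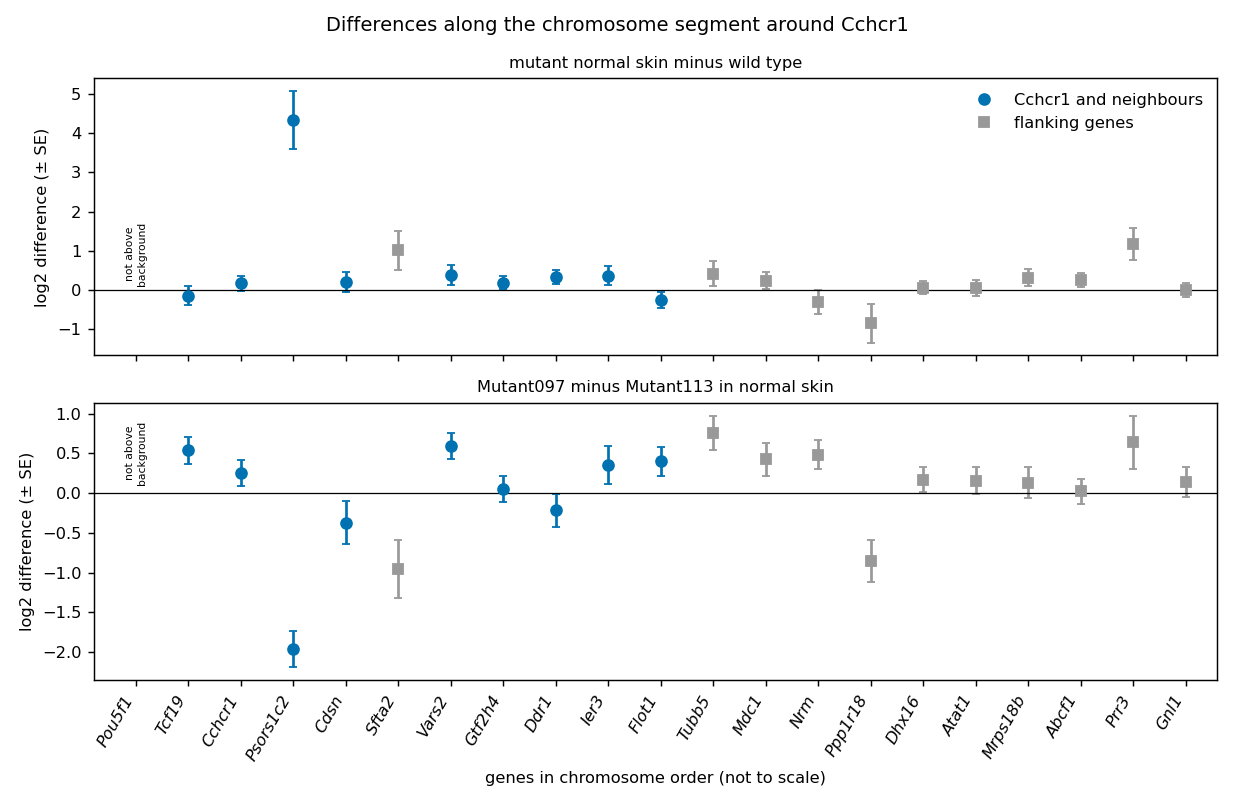
Log2 difference with its SE (vertical axes) for the genes of the segment in chromosome order (horizontal axis, not to scale), for mutant normal minus wild type and for Mutant097 minus Mutant113 in normal skin. Circles are Cchcr1 and its neighbours and squares are flanking genes. Psors1c2, at 4.34 and -1.96, stands apart from Cchcr1 (0.17 and 0.26) and Cdsn (0.22 and -0.37) on its sides.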

How the data were processed

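RNA of 8 mouse skin samples was measured, 1 array each. Per the file headers, the authors' scanner files hold an intensity for each spot, corrected for background by Agilent Feature Extraction 11.5.1.1. They also hold a column of marks for spots well above background. The deposited matrix holds log2 values, which differ from the log2 of that intensity by 1 constant per array. Non-uniform and outlier spots (118 to 210 per array) were left out, spots of a probe averaged, and the 75th percentile of the array subtracted on the log2 scale. The array design names mm9. Names came from RefSeq accessions, and only sequences carry coordinates, in GRCm38.p6.

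Probes well above background on at least 2 of 8 arrays were tested with limma 3.58.1 in R 4.3.3, two-sided, in 1 model of 3 groups (5 residual and 2.71 prior degrees of freedom), or of group by title number (3 residual). The scripts were tested on simulated data. The number of arrays limits precision. Alternatives were the matrix, background, normalization, filter, trend, blocks and samples. The members and lists were chosen with earlier results of these data known. Named genes are the 10 members, the 5 nearest in pattern to Cchcr1 and to Cdsn, the 3 brightest of each list and called list members. The 5 nearest to Psors1c2, Sfta2, Ppp1r18, Prr3 and the sex-linked genes were added after values were seen.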

Additional observations from a re-analysis of the deposited data

How the results depend on the processing

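The counts of called probes moved more than the signs of the 10 tested probes. Mutant normal minus wild type called 128 probes with no filter, 64 with probes above background on all arrays, 339 with an intensity trend, 856 with slide row as a block, 0 with 1 mean per title number and group, 991 with Mutant113 only, and 0 to 191 when 1 sample was left out (116 without mutant normal replicate 3, 75 without mutant normal replicate 4, 10 and 0 without wild type replicates 1 and 2). Hair loss minus wild type called 183, 1175 and 1332 with no filter, the trend and the row block, 706 with only the groups compared, 0 with the means, 1835 with Mutant097 only, and 0 to 566 with 1 sample left out (2 without hair loss replicate 1, 10 and 0 without wild type replicates 1 and 2). Hair loss minus mutant normal skin called 191 in Mutant097 only, 1 in Mutant113 only, and 0 to 11 with 1 sample left out (9 without hair loss replicate 2, 11 without mutant normal replicate 3). Mutant097 minus Mutant113 called 464 with normexp, 146 with quantile normalization, 19 with no filter and 6 to 64 with 1 sample left out (12, 6 and 8 without mutant normal replicates 1, 3 and 4), and the difference between lesion effects 287 and 3 with normexp and quantile normalization.

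These differences changed sign. With normexp the dimmer Vars2 probe came to -0.092 in mutant normal and -0.11 in hair loss skin against wild type and 0.20 between title numbers, and Gtf2h4 between title numbers to -0.032 (-0.0077 with quantile normalization). With the row block, hair loss minus mutant normal skin became -0.20 for Tcf19, -0.014 for Cchcr1 and -0.091 for Ier3, and the brighter Vars2 probe -0.35 in hair loss minus wild type. In Mutant097 only, Tcf19 was 0.13 and 0.12 against wild type and -0.013 for the lesion. In Mutant113 only, the lesion difference was -0.0037 for Cchcr1, -0.52 for Psors1c2, -0.10 for Gtf2h4 and -0.13 for Ddr1. Leaving out 1 sample gave, for hair loss minus mutant normal skin, -0.13 to 0.26 for Tcf19, -0.13 to 0.36 for Cchcr1, -0.13 to 0.26 for Gtf2h4, -0.057 to 0.12 for Ddr1, -0.068 to 0.24 for Ier3 and -0.37 to 0.080 for the brighter Vars2 probe. It gave -0.26 to 0.12 for Tcf19 and -0.011 to 0.67 for the dimmer Vars2 probe in hair loss minus wild type, and between title numbers -0.011 to 0.12 for Gtf2h4 and -0.46 to 0.021 for that probe. The cause was not tested.

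With the title number as a replicate block, hair loss minus mutant normal skin called 0 probes and Psors1c2 was 1.27 (limma adjusted p = 0.725). The block changed no call. Deviations of same-numbered samples correlated at 0.019 to 0.21, which with 2 hair loss samples does not settle whether the numbers pair the samples. With the title letter as a replicate block, chosen after seeing the data, mutant normal minus wild type over the 6 normal skin samples called 80 probes and Psors1c2 was 4.34 (limma adjusted p = 0.107). No paired analysis was possible for hair loss minus wild type because those groups share neither number nor letter. Normexp on the mean signal was not run, since only the median signal is at hand. With the mean of all its probes Vars2 had group levels of -1.84 in hair loss, -1.69 in mutant normal and -2.12 in wild type skin. Dim probes such as Pou5f1 are limited by signal over background.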
